A study of Oryctolagus cuniculus with 16 samples.

Results

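Collagen chain genes encode the polypeptides that wind together in triple helices to form the collagens of connective tissue. They were taken here as every gene of the count table whose symbol is COL, a number, the letter A and a number, which gave 32 of 13001 named genes. They were arranged in classes: 9 fibrillar, 7 basement membrane, 7 fibril-associated (FACIT), 3 beaded filament, 2 network and 3 transmembrane collagen genes, and COL26A1 outside these classes. Other collagen genes, among them COL5A1, COL6A1 and COL18A1, did not appear under their symbols in the count table and were not analysed here. Collagen totals below therefore cover these 32 genes only.

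The libraries came from poly(A) RNA of whole vaginal tissue of juvenile female New Zealand White rabbits, 17 to 19 weeks old, with no genetic change stated. Control was the native vagina (n = 6, animals 2, 9, 16, 24, 25 and 29), and sham was the vagina after a sham operation (n = 3, animals 11, 12 and 14). Acellular was the vagina after insertion of a graft without tissue particles (n = 3, animals 6, 8 and 10), and PLATE was the vagina after insertion of a graft with tissue particles (n = 4, animals 1, 5, 9 and 13). Both graft groups were sampled at 10 mm from the graft, so these are values of neighbouring wall and not of the graft itself. The sampling site of control and sham and the time after surgery are not given in the sources used here, so that site and graft cannot be told apart in comparisons of a graft group with control or sham. Each library carries an animal number, and number 9 occurs in both control and PLATE with no statement on whether it is 1 animal.

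Fibrillar collagens, of which type I and type III are the bulk in the vaginal wall, give the tissue its tensile strength, and the ratio of type III to type I is often used as a measure of how compliant or how mature a connective tissue is. Type IV collagen is a sheet under epithelium and around smooth muscle and vessels. FACIT collagens sit on the fibril surface, and the transmembrane collagens are anchored in the cells that make them. After surgery fibroblasts lay down new fibrillar collagen, with type III early and type I later.

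Counts of named genes came to 15348880 to 23236339 per library. Values are counts per 1e+06 counts (CPM) with TMM-scaled library sizes, and they are not divided by transcript length, so levels are compared between libraries and not between genes. Markers of the tissue's main stromal cells were present in every library: fibroblast markers had a summed level of 4588 to 15966 CPM over 9 genes, and smooth muscle markers 9095 to 156482 CPM over 6 genes. PLATE 1 and control 2 stood apart from the other libraries before any collagen gene was considered. PLATE 1 had 1955 CPM of the collagenase gene MMP1 against at most 77.2 CPM elsewhere and 46.8 CPM of the oestrogen receptor gene ESR1 against at least 161 CPM elsewhere. Control 2 had 13.7 CPM over 5 columnar epithelium markers. For many results that rest on either library, values without that library or without both are also given.

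The 32 collagen chain genes together took 0.942 to 3.53% of the named counts in control, with a median of 2.30%. The shares were 4.96, 1.86 and 1.65% in sham 11, 12 and 14, and 1.57, 1.02 and 0.869% in acellular 6, 8 and 10. In PLATE they lay between 2.36 and 4.22%. All 4 PLATE libraries were above all 3 acellular libraries, whereas the control range covered most of both. COL1A1, COL1A2 and COL3A1 made up 72.4 to 87.2% of the counts of these 32 genes in each library.

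**Figure D1:**
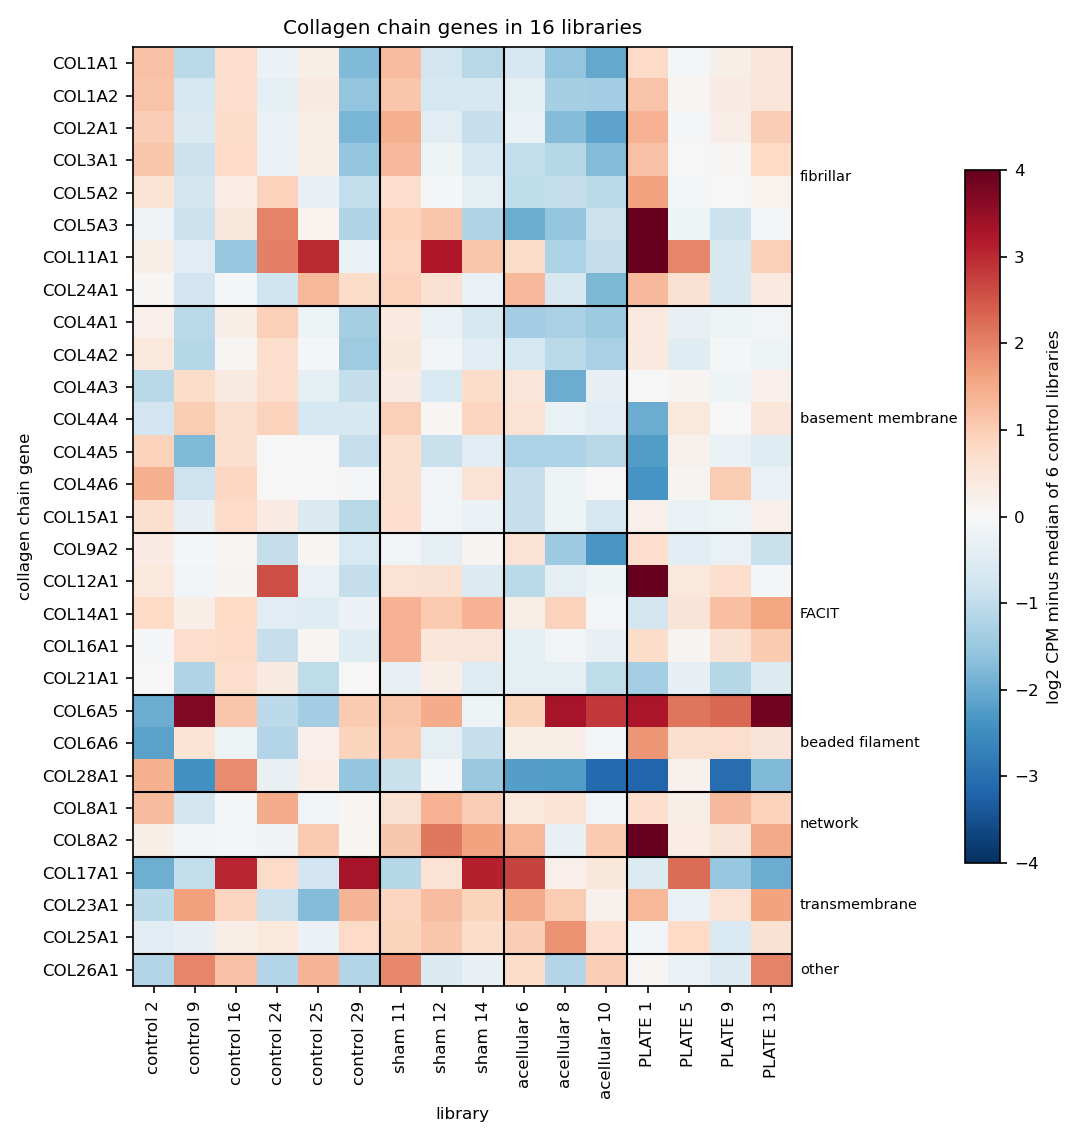
Log2 CPM of each of the 29 tested collagen chain genes (vertical axis, by class) in each of the 16 libraries (horizontal axis, by group), as the difference from that gene's median over the 6 control libraries; colour is cut off at a difference of 4. The acellular columns are mostly below the control median for fibrillar and basement membrane genes, and PLATE 1 differs from PLATE 5, 9 and 13 in COL5A3, COL11A1, COL12A1 and COL8A2.

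The count table gave no collagen chain gene past an adjusted p of 0.05 in any of the 6 comparisons of the 4 groups, by edgeR's quasi-likelihood test with Benjamini-Hochberg adjustment over 10942 genes. Of all genes tested, 0% were called by edgeR in each comparison. The smallest adjusted p of a collagen chain gene was 0.657, in PLATE against sham. Limma voom with quality weights and DESeq2 called 0 collagen chain genes, although DESeq2 gave no adjusted p for COL5A3, COL8A2, COL11A1 and COL12A1. Of all genes, DESeq2 called 0.0914% in acellular against control, 0.00914% in acellular against sham, 0.128% in PLATE against sham and 0.00914% in PLATE against acellular, voom called 0.658% in acellular against sham, and the other counts of both tools were 0. In a joint test of the 4 groups, 9 of the 29 genes that passed the filter on low counts had an unadjusted p under 0.05, against 4.8% of all genes tested. COL11A1 (unadjusted p = 0.00312) and COL8A2 (unadjusted p = 0.00473) led that test, both with an adjusted p of 0.901 by edgeR. What follows is therefore a description of levels, their spread and their direction. In tissue samples like these, fewer cells of a type and less RNA per cell cannot be told apart.

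With all libraries, PLATE against acellular had the most collagen chain genes at an unadjusted p under 0.05 by edgeR among the 6 comparisons. By the median log2 fold change, acellular against sham was at least as far apart (-0.81). Of the 29 tested collagen chain genes, 24 had a higher fitted level in PLATE than in acellular tissue and 5 a lower one, and 52.4% of all genes were higher. The median log2 fold change was 0.74, against 0.023 over all genes tested. For 12 of the 29 (41.4%) the level was higher at an unadjusted p under 0.05, against 3.61% of all genes in that direction, and for 1 it was lower, against 1.1%. In 10 of the 29 (34.5%) all 4 PLATE libraries were above all 3 acellular libraries, against 3.27% of all genes, and in 0 they were all below, against 1.7%. Without control 2 and PLATE 1, the median was 0.69, 6 genes (20.7%) were higher at an unadjusted p under 0.05 against 1.11% of all genes, and 11 (37.9%) did not overlap against 5.31%. The lowest adjusted p in this comparison was 0.875 by edgeR.

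Against the other groups the acellular libraries were the low ones. Relative to sham, 27 of the 29 genes had a lower fitted level and 2 a higher one, where 52.2% of all genes were higher. The median log2 fold change was -0.81, against 0.019 over all genes. Here 5 genes were lower and 0 higher at an unadjusted p under 0.05, against 3.11% and 1.76% of all genes. With control 2 and PLATE 1 left out of the model, 10 were lower and 0 higher, against 4.95% and 4.44% of all genes. Neither library belongs to acellular or sham, and the median was then -0.80. The larger count therefore came with the model's shared estimates and not with other levels in these groups. Leaving out 1 acellular or sham library gave medians from -1.15 to -0.54. For 10 genes (34.5%) all acellular libraries were below all sham libraries, against 10.5% of all genes, and for 0 they were all above, against 7.82%. Relative to control, 23 of the 29 were lower and 6 higher, where 45.8% of all genes were higher, and the median was -0.55 against -0.034 over all genes. In that comparison 7 were lower and 1 higher at an unadjusted p under 0.05, against 4.22% and 1.77% of all genes, and 0 of the 29 had groups that did not overlap, against 1.02% lower and 0.704% higher of all genes. Without control 2 and PLATE 1 the median against control was -0.51. At an unadjusted p under 0.05, 5 were then lower and 1 higher, against 4.05% and 3.33% of all genes. The comparisons share their acellular libraries, so they are not separate evidence.

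Sham and PLATE differed little from control in the median. In sham 21 of 29 genes were higher and 8 lower than in control, where 42.1% of all genes were higher. Their median log2 fold change was 0.064, against -0.060 over all genes. Of these, 3 were higher and 0 lower at an unadjusted p under 0.05, against 1.22% and 1.76% of all genes, and 2 had all sham libraries above control and 0 all below, against 1.9% and 1.79%. In PLATE 19 were higher and 10 lower than in control, where 47.7% of all genes were higher, with a median of 0.29 that was 0.011 without control 2 and PLATE 1. There 4 were higher and 1 lower at an unadjusted p under 0.05, against 3.3% and 1.09% of all genes, and 0 did not overlap, against 0.0274% higher and 0.0914% lower. Between PLATE and sham, 13 were higher and 16 lower in PLATE, where 52.6% of all genes were higher, with a median of -0.032. Of these, 2 were higher and 0 lower at an unadjusted p under 0.05, against 5.85% and 1.65% of all genes. COL6A5 was the 1 gene whose PLATE libraries were all above the sham libraries, against 7.91% of all genes, and 0 were all below, against 6.95%. Both shares are below those of all genes.

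**Figure D2:**
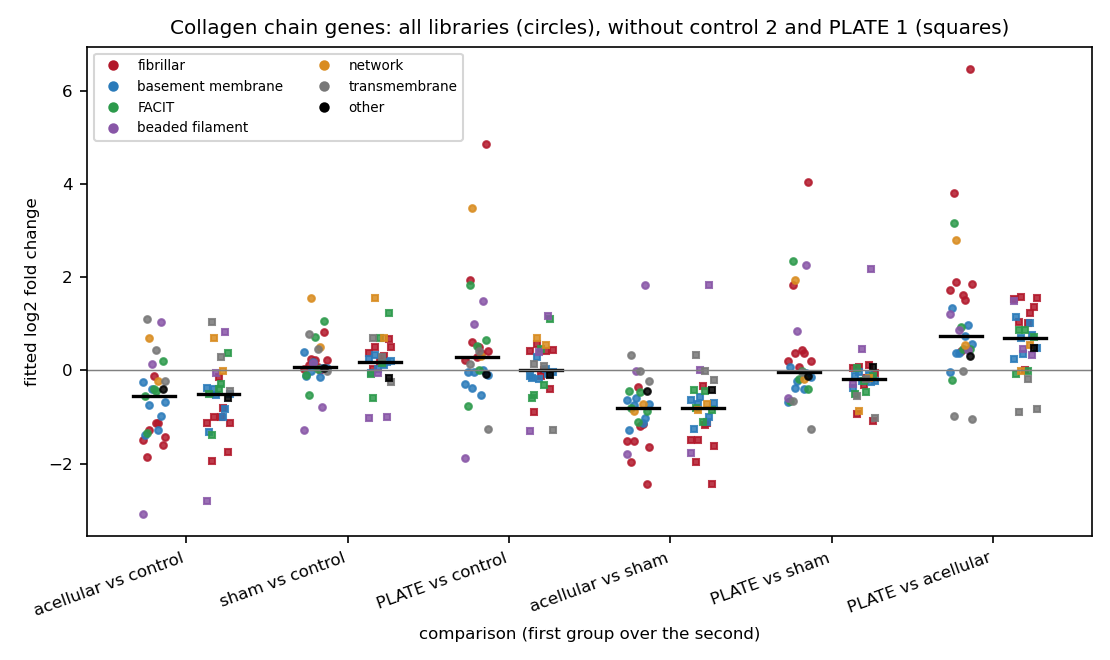
Fitted log2 fold change (vertical axis) of the 29 tested collagen chain genes in each of the 6 comparisons (horizontal axis), coloured by class, with all libraries (circles) and without control 2 and PLATE 1 (squares); each point is 1 gene and the line is the median. The fibrillar genes lie below 0 in acellular against control and against sham, most points lie above 0 in PLATE against acellular, and the highest points in the PLATE comparisons with all libraries are not there without control 2 and PLATE 1.

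The major fibrillar genes varied widely between the libraries of control and of sham. COL1A1 encodes the chain present in the larger number of copies in type I collagen. COL1A1 ran from 812 CPM in control 29 to 6314 CPM in control 2, with a control median of 2832 CPM. Sham 11, 12 and 14 had 6570, 1672 and 1289 CPM, acellular 6, 8 and 10 had 1735, 927 and 672 CPM, and PLATE 1, 5, 9 and 13 had 4717, 2697, 3290 and 3883 CPM. All PLATE libraries were above all acellular libraries for this gene, sham 11 was the highest of the 16, and the control range held every acellular library except acellular 10. The log2 fold change of COL1A1 in PLATE against acellular was 1.71 ± 0.69 (SE; unadjusted p = 0.0249, edgeR adjusted p = 0.875). In acellular against control it was -1.48 ± 0.65 (edgeR unadjusted p = 0.0372), and against sham -1.52 ± 0.71 (edgeR unadjusted p = 0.0506), which was -0.40 without sham 11.

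COL1A2, the gene of the other type I chain, stood between 2394 CPM in control 29 and 15759 CPM in control 2, with a control median of 7432 CPM. Its levels were 15579, 4417 and 4587 CPM in sham 11, 12 and 14, then 5555, 2842 and 2758 CPM in acellular 6, 8 and 10, and 15841, 7561, 9128 and 9980 CPM in PLATE 1, 5, 9 and 13. The highest libraries were again PLATE 1, control 2 and sham 11, and PLATE and acellular did not overlap, with a log2 fold change of 1.52 (edgeR unadjusted p = 0.0297).

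COL3A1, the single chain gene of type III collagen, had a control range of 2922 CPM (control 29) to 18243 CPM (control 2) around a median of 8621 CPM. Sham 11, 12 and 14 had 20726, 7331 and 5375 CPM, acellular 6, 8 and 10 had 4316, 3831 and 2573 CPM, and PLATE 1, 5, 9 and 13 had 19330, 8680, 8761 and 14817 CPM. Every acellular library was below every sham and every PLATE library, and 5 of the 6 control libraries were above all acellular ones. COL3A1 was higher in PLATE than in acellular tissue by a log2 fold change of 1.85 ± 0.64 (SE; unadjusted p = 0.0111, edgeR adjusted p = 0.875), and by 1.59 without PLATE 1. Acellular against sham gave -1.64 ± 0.66 (unadjusted p = 0.0255, edgeR adjusted p = 0.902), and -0.81 without sham 11. Acellular against control gave -1.43 ± 0.60 (edgeR unadjusted p = 0.0308).

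**Figure D3:**
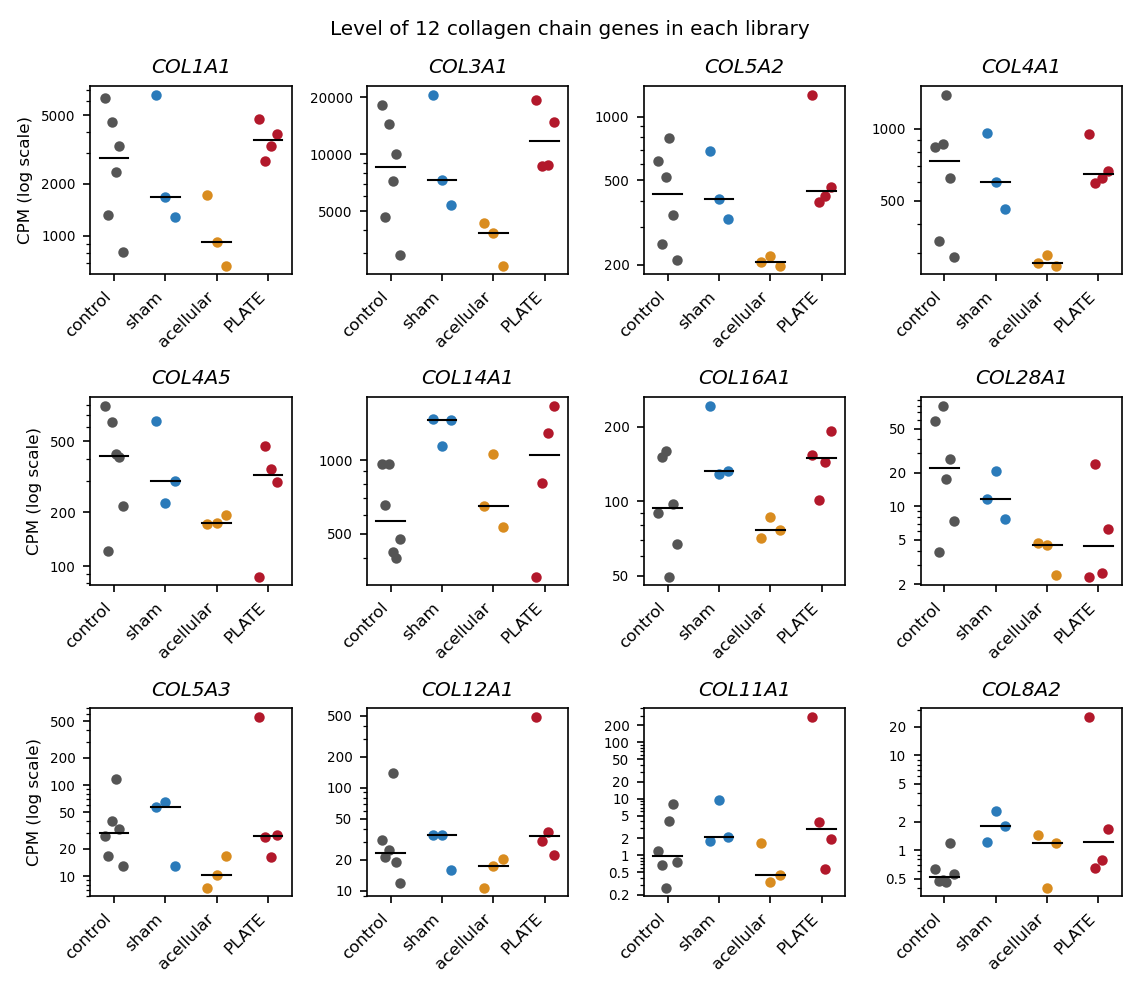
CPM on a log axis (vertical) of 12 collagen chain genes in each library, by group (horizontal); each point is 1 library and the line is the group median. For COL3A1, COL5A2 and COL4A1 the acellular points lie below the PLATE points, and for COL5A3, COL12A1, COL11A1 and COL8A2 a single PLATE point, PLATE 1, stands far above the rest.

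The minor fibrillar collagens are built into type I fibrils and limit their width. COL5A2, a type V chain gene, had control values of 211 CPM (control 29) to 793 CPM (control 24) with a median of 430 CPM. It stood at 687, 409 and 330 CPM in sham 11, 12 and 14, at 206, 219 and 198 CPM in acellular 6, 8 and 10, and at 1273, 397, 420 and 467 CPM in PLATE 1, 5, 9 and 13. The acellular libraries lay close together below all sham and PLATE libraries, and they reached only the lowest control. COL5A2 had the smallest p of the collagen chain genes in PLATE against acellular, with a log2 fold change of 1.62 ± 0.50 (SE; unadjusted p = 0.00561, edgeR adjusted p = 0.875), and 1.04 without PLATE 1.

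COL5A3, another type V chain gene, ranged over 13.0 to 118 CPM in control with a median of 30.0 CPM. It had 57.05, 64.3 and 12.8 CPM in sham 11, 12 and 14, and 7.43, 10.3 and 16.5 CPM in acellular 6, 8 and 10. PLATE 5, 9 and 13 had 26.7, 16.3 and 28.3 CPM, and PLATE 1 had 566 CPM, 4.81 times the next highest library. COL5A3 in PLATE against acellular had a log2 fold change of 3.80 ± 1.25 (SE; unadjusted p = 0.00805, edgeR adjusted p = 0.875), which was 1.06 without PLATE 1, and acellular 10 lay above PLATE 9.

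COL11A1, the gene of a type XI chain known from cartilage and from activated fibroblasts, was low in all libraries except PLATE 1. Control ran from 0.265 to 8.24 CPM with a median of 0.966 CPM, sham 11, 12 and 14 had 1.77, 9.58 and 2.14 CPM, and acellular 6, 8 and 10 had 1.64, 0.336 and 0.444 CPM. PLATE 5, 9 and 13 had 3.93, 0.575 and 1.92 CPM, against 288 CPM in PLATE 1. The log2 fold changes of COL11A1 were 4.85 ± 1.41 in PLATE against control, 4.03 ± 1.81 against sham and 6.46 ± 2.09 against acellular (SE; edgeR unadjusted p = 0.00364, 0.0415 and 0.00736, adjusted p = 0.998, 0.657 and 0.875). Without PLATE 1 they were -0.24, -1.06 and 1.39, so the direction against control and sham came from that library alone.

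COL24A1, another minor fibrillar chain gene, stayed between 0.740 and 7.16 CPM in all 16 libraries. COL11A2 had at most 17 counts, in PLATE 1, and did not pass the filter on low counts. COL2A1, the gene of the type II collagen of cartilage, had 72.3 to 502 CPM in control with a median of 259 CPM, 678, 187 and 135 CPM in sham 11, 12 and 14, 213, 76.9 and 58.9 CPM in acellular 6, 8 and 10, and 664, 247, 304 and 507 CPM in PLATE 1, 5, 9 and 13. These levels followed COL1A1 in every library, at 0.0795 to 0.141 of its counts. The cartilage genes ACAN and MATN3 had at most 6.86 and 2.52 CPM in the same libraries. Whether reads of the similar COL1A1 coding sequence were assigned to COL2A1 was not tested, and its values are uncertain for that reason.

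As a class, 8 of 8 tested fibrillar genes had a lower fitted level in acellular tissue than in control. The median log2 fold change was -1.35, or -1.06 without control 2 and PLATE 1. At an edgeR unadjusted p under 0.05, 3 (37.5%) were lower, against 4.22% of all genes. Without these libraries 2 (25%) were, against 4.05%. Relative to sham, 8 of 8 were lower (median -1.52). In PLATE 8 of 8 were higher than in acellular tissue, with a median of 1.78, or 1.29 without control 2 and PLATE 1. Against control, 8 of 8 were higher in PLATE with all libraries (median 0.46), and 5 were higher and 3 lower without control 2 and PLATE 1 (median 0.21). Several of these genes followed each other across libraries, so a count of 8 does not stand for 8 separate observations.

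Markers of stromal cells also differed beside these genes. Of 9 fibroblast markers, 8 were higher and 1 lower in PLATE than in acellular tissue (median log2 fold change 0.16). At an unadjusted p under 0.05, 2 of them were higher, against 3.61% of all genes, and 0 passed the adjusted threshold by edgeR. Of 6 smooth muscle markers, 6 were higher in PLATE (median 1.28), also 2 at an unadjusted p under 0.05, against the same 3.61%. By edgeR 0 of them passed the adjusted threshold, and their summed level in PLATE lay above that in acellular tissue without overlap. The summed fibroblast level was 4588 to 12460 CPM in control, 12373 to 15966 CPM in sham, 6772 to 12833 CPM in acellular and 7343 to 11951 CPM in PLATE, where PLATE and acellular overlapped. This sum is mostly DCN and LUM, with 2137549 and 754272 counts over all libraries. The next fibroblast marker, FBLN1, had 101761. The part of either cell type in the fibrillar levels was not tested. Across the 16 libraries, COL3A1 and the fibroblast sum had a Pearson r of -0.042 (permutation p = 0.881, adjusted p = 0.881) and a Spearman rho of -0.079 (permutation p = 0.771) on the log2 scale. This pair was added after values had been seen. The smooth muscle sum was not correlated with COL3A1, so this r covers the fibroblast sum only.

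Differences between groups in the ratio of COL3A1 to COL1A1 counts were within the spread between libraries. It was 3.22 ± 0.28 in control (SD, n = 6), with a range of 2.89 to 3.60. It was 3.15, 4.38 and 4.17 in sham 11, 12 and 14, then 2.49, 4.13 and 3.83 in acellular 6, 8 and 10, and 4.10, 3.22, 2.66 and 3.82 in PLATE 1, 5, 9 and 13. The group means were 3.90 ± 0.66 in sham, 3.48 ± 0.87 in acellular and 3.45 ± 0.64 in PLATE (SD), and each group overlapped every other. Sham against control had the smallest p of the 6 comparisons, with a difference of 0.27 in log2 ratio (2-sided exact permutation p = 0.0952, adjusted p = 0.571). The other p-values ran up to 0.971 by the same exact test. With 3 libraries against 3, no p under 0.1 can be had.

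**Figure D4:**
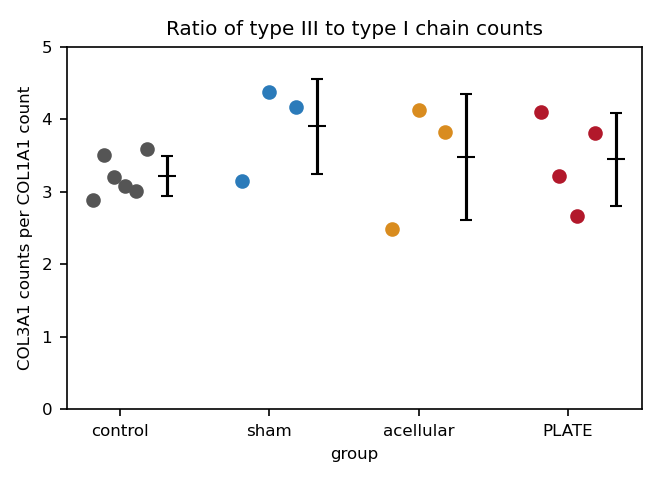
Ratio of COL3A1 to COL1A1 counts (vertical axis) in each library by group (horizontal axis), with group mean and SD. Control lies within 2.89 to 3.60, and the operated groups spread to both sides of it, from 2.49 to 4.38.

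The basement membrane genes include the type IV chains and, at the basement membrane zone, COL15A1. COL4A1 and COL4A2 encode the chains of the type IV collagen found in all basement membranes. COL4A1 stood at 290 CPM (control 29) to 1393 CPM (control 24) with a control median of 732 CPM, 957, 596 and 463 CPM in sham 11, 12 and 14, 273, 295 and 266 CPM in acellular 6, 8 and 10, and 951, 590, 624 and 667 CPM in PLATE 1, 5, 9 and 13. The 3 acellular libraries were nearly equal, below all sham and PLATE libraries, and overlapped only with the lowest control. COL4A1 had the smallest p of the collagen chain genes in acellular against control, with a log2 fold change of -1.38 ± 0.43 (SE; unadjusted p = 0.00564, edgeR adjusted p = 0.827). Against sham it was -1.27 ± 0.47 (edgeR unadjusted p = 0.0162), and PLATE against acellular gave 1.35 ± 0.45 (edgeR unadjusted p = 0.00904), or 1.17 without PLATE 1.

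COL4A2 showed the same order of groups, with 140 to 614 CPM in control (median 374 CPM), 513, 344 and 272 CPM in sham 11, 12 and 14, 228, 176 and 152 CPM in acellular 6, 8 and 10, and 494, 266, 362 and 328 CPM in PLATE 1, 5, 9 and 13. Its acellular libraries were below all sham and PLATE libraries, with log2 fold changes of -1.02 in acellular against sham (edgeR unadjusted p = 0.0412) and 0.97 in PLATE against acellular (edgeR unadjusted p = 0.0417).

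COL4A5 and COL4A6 encode chains of the type IV collagen around smooth muscle and under some epithelia. COL4A5 had 121 CPM (control 9) to 793 CPM (control 2) in control with a median of 415 CPM, 654, 225 and 300 CPM in sham 11, 12 and 14, 172, 174 and 193 CPM in acellular 6, 8 and 10, and 87.2, 469, 348 and 296 CPM in PLATE 1, 5, 9 and 13. Acellular was below sham in every library, and PLATE 1 was the lowest of all 16 while the other PLATE libraries lay above acellular. Acellular against control gave a log2 fold change of -1.27 ± 0.57 (SE; unadjusted p = 0.0424, edgeR adjusted p = 0.827). COL4A6 ran from 119 to 566 CPM in control (median 211 CPM), with 330, 196 and 318 CPM in sham 11, 12 and 14, 111.9, 184 and 211 CPM in acellular 6, 8 and 10, and 41.0, 227, 425 and 177 CPM in PLATE 1, 5, 9 and 13. All groups overlapped for COL4A6, and PLATE 1 was again the lowest.

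Smooth muscle markers differed between the groups beside these genes. Their sum over 6 genes was 9095 to 156482 CPM in control, 36950 to 62758 CPM in sham, 13212 to 17910 CPM in acellular and 28985 to 47605 CPM in PLATE, so that acellular lay below sham and PLATE without overlap. Across the 16 libraries the log2 smooth muscle sum and COL4A5 had a Pearson r of 0.80 (permutation p = 0.00022, adjusted p = 0.000403) and a Spearman rho of 0.85 (permutation p = 7e-05). The r was 0.69 after leaving out the 2 libraries farthest from the median, and 0.92 without PLATE 1. This pair was chosen after values had been seen, and the part of smooth muscle content in the type IV levels was not tested.

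COL4A3 and COL4A4, whose chains are known from kidney and lung, were low: 0.202 to 1.89 CPM for COL4A3 and 0.906 to 7.92 CPM for COL4A4 over all libraries. COL15A1, the gene of a collagen outside the basement membrane of muscle and capillaries, had 273 to 1018 CPM in control with a median of 609 CPM, 942, 551 and 495 CPM in sham 11, 12 and 14, 317, 513 and 377 CPM in acellular 6, 8 and 10, and 686, 499, 519 and 692 CPM in PLATE 1, 5, 9 and 13. Its groups overlapped in every comparison. As a class 7 of 7 basement membrane genes were lower in acellular tissue than in control. The median log2 fold change was -0.74, or -0.54 without control 2 and PLATE 1. At an edgeR unadjusted p under 0.05, 3 (42.9%) were lower, against 4.22% of all genes. Without these libraries 2 (28.6%) were, against 4.05%. Relative to sham, 7 of 7 were lower (median -0.73). In PLATE 6 of 7 were higher than in acellular, with a median of 0.57. Without control 2 and PLATE 1, 7 of 7 were higher, with a median of 0.69.

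Pairs of genes were compared across the 16 libraries on the log2 scale, in a family of 11: chain genes of 1 molecule, chain genes of different molecules, and collagen genes with sums of cell markers. COL1A1 and COL1A2 had a Pearson r of 0.98 and a Spearman rho of 0.98, and COL1A1 and COL3A1, of different molecules, had 0.97 and 0.97. COL4A1 and COL4A2 had 0.95 and 0.94. For each of these pairs the permutation p was 1e-05 for both measures, the smallest that the permutations could give, and the adjusted p was 2.75e-05. With the 2 libraries farthest from the median left out, r was 0.98, 0.96 and 0.94.

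COL4A5 and COL4A6 had a Pearson r of 0.85 (permutation p = 3e-05) and a Spearman rho of 0.86 (permutation p = 5e-05), and r was 0.74 without the 2 farthest libraries. COL4A3 and COL4A4 had an r of 0.58 (permutation p = 0.0198, adjusted p = 0.0311) and a rho of 0.81 (permutation p = 0.00024), and r was 0.65 without the 2 farthest libraries and 0.81 without PLATE 1. For COL8A1 and COL8A2 no relation was detectable, with an r of 0.21 (permutation p = 0.468) and a rho of 0.26 (permutation p = 0.337). For COL11A1 and COL11A2 the r of 0.53 (permutation p = 0.0376, adjusted p = 0.0460) was 0.17 without the 2 farthest libraries, with a rho of 0.20 (permutation p = 0.452), and rested on those libraries, among them PLATE 1.

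Type IV chains of different molecules parted in PLATE 1. COL4A1 and COL4A5, a pair added after values had been seen, had an r of 0.53 (permutation p = 0.0345, adjusted p = 0.0460) and a rho of 0.57 (permutation p = 0.025), against an r of 0.82 without PLATE 1. The ratio of COL4A5 to COL4A1 counts was 0.0917 in PLATE 1 and 0.304 to 0.945 in the other libraries. Control 24 had the lowest of the other ratios. COL2A1, also added after values had been seen, had an r of 0.97 and a rho of 0.98 with COL1A1 (permutation p = 1e-05 each). In the RefSeq annotation of the rabbit assembly mOryCun1.1, COL4A1 and COL4A2, COL4A3 and COL4A4, COL3A1 and COL5A2, COL6A5 and COL6A6, and COL9A1 and COL19A1 are neighbouring genes.

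**Figure D5:**
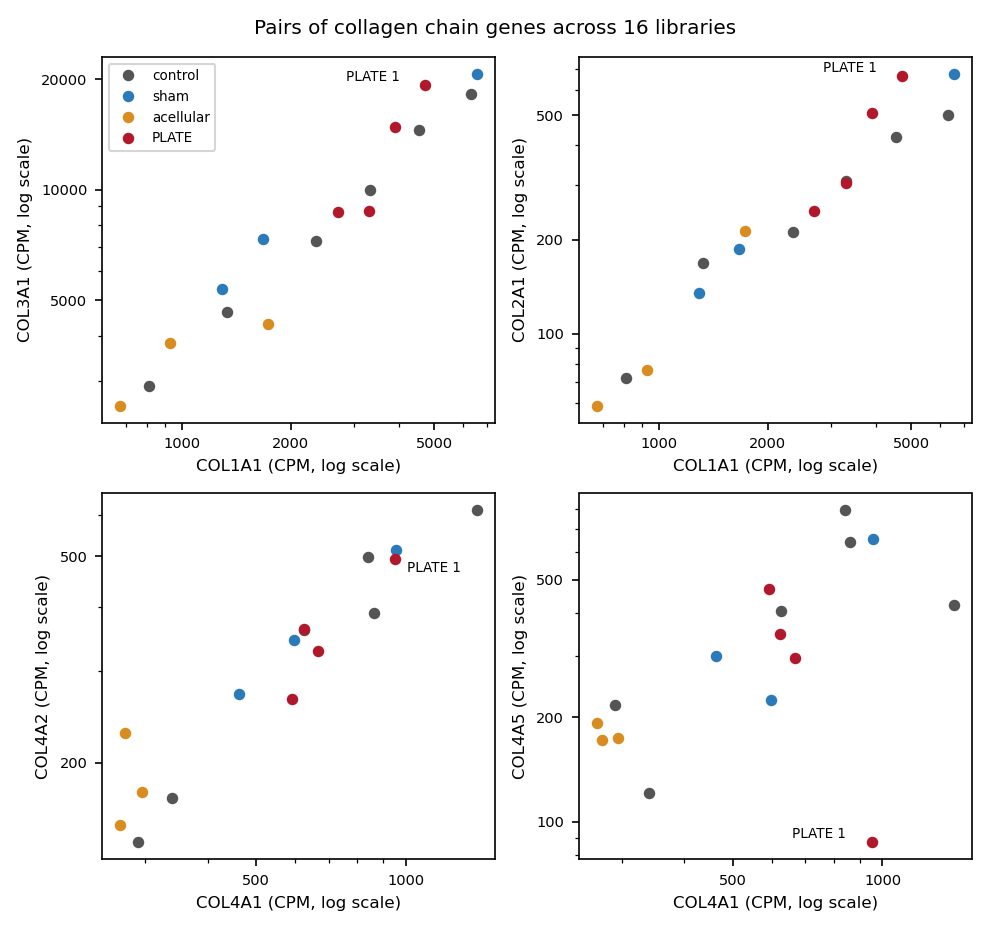
CPM of 4 pairs of collagen chain genes in the 16 libraries (both axes log), coloured by group. COL1A1 with COL3A1, COL1A1 with COL2A1 and COL4A1 with COL4A2 lie along a line, and PLATE 1 lies below the others in the panel of COL4A1 and COL4A5.

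Among the FACIT genes, COL14A1 differed from the fibrillar pattern. COL14A1 encodes a collagen that coats type I fibrils in mature, load-bearing tissue. Its control values ran from 400 CPM (control 25) to 968 CPM (control 16) with a median of 565 CPM. It had 1465, 1145 and 1462 CPM in sham 11, 12 and 14, and 652, 1060 and 532 CPM in acellular 6, 8 and 10. PLATE 5, 9 and 13 had 803, 1288 and 1667 CPM, and PLATE 1 had 335 CPM, the lowest of the 16. All 3 sham libraries were above all 6 control libraries and above all acellular ones. The log2 fold change of sham against control was 1.07 ± 0.41 (SE; unadjusted p = 0.0203, edgeR adjusted p = 0.963), and leaving out any 1 library gave 0.96 to 1.22. In PLATE against control it was 0.66 (edgeR unadjusted p = 0.105), and 1.10 without control 2 and PLATE 1 (edgeR unadjusted p = 0.00447). Without these libraries the smallest edgeR adjusted p of all genes in that comparison was 0.999. Without PLATE 13 the PLATE value was 0.32. Acellular against control gave 0.21, or -0.13 without acellular 8, and the acellular libraries lay within the control range or above it. The mean fibroblast sum, 14642 CPM, was also highest in sham, and its part in the COL14A1 level was not tested.

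COL16A1, a FACIT gene of fibroblasts and smooth muscle, ran from 49.6 CPM (control 24) to 160 CPM (control 16) in control with a median of 93.7 CPM. It had 244, 130 and 132 CPM in sham 11, 12 and 14, 71.1, 86.4 and 76.8 CPM in acellular 6, 8 and 10, and 154, 101.3, 144 and 193 CPM in PLATE 1, 5, 9 and 13. Acellular was below sham and below PLATE without overlap, and each of the 3 groups overlapped with control. COL16A1 had the smallest p of the collagen chain genes in acellular against sham, with a log2 fold change of -1.11 ± 0.39 (SE; unadjusted p = 0.0123, edgeR adjusted p = 0.902). Sham 11 was the highest sham library, and without it the value was -0.73. Sham against control gave 0.72 ± 0.33 (edgeR unadjusted p = 0.0445), or 0.37 without sham 11, and PLATE against acellular 0.92 (edgeR unadjusted p = 0.0247).

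COL12A1, which encodes a FACIT collagen of tendon and healing wounds, had 11.8 to 138 CPM in control with a median of 23.04 CPM. Sham 11, 12 and 14 had 34.7, 35.0 and 15.9 CPM, acellular 6, 8 and 10 had 10.7, 17.4 and 20.6 CPM, and PLATE 5, 9 and 13 had 30.5, 37.4 and 22.1 CPM. PLATE 1 had 491 CPM, 3.55 times the next highest library, control 24. The log2 fold change in PLATE against sham was 2.35 ± 1.08 (SE; unadjusted p = 0.0457, edgeR adjusted p = 0.657), and 0.075 without PLATE 1. PLATE and acellular did not overlap, also apart from PLATE 1, and the log2 fold change there was 3.16, or 0.89 without PLATE 1. COL21A1 stood at 6.08 to 25.9 CPM and COL9A2 at no more than 1.49 CPM.

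The 2 FACIT genes that did not pass the filter were COL19A1, with at most 14 counts in a library, and COL9A1. COL9A1 had 5 counts in control 25 and 0 in the other 15 libraries, where a count of 0 allows up to 3 counts.

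COL28A1, the gene of a collagen of peripheral nerve and dorsal root ganglia, was the member furthest below control in acellular tissue. It ran from 3.92 CPM (control 9) to 80.7 CPM (control 16) in control with a median of 22.1 CPM. Sham 11, 12 and 14 had 11.6, 20.8 and 7.70 CPM, acellular 6, 8 and 10 had 4.65, 4.502 and 2.42 CPM, and PLATE 1, 5, 9 and 13 had 2.33, 24.2, 2.51 and 6.25 CPM. The acellular libraries were below all sham libraries and overlapped with control 9 only. The log2 fold change was -3.07 ± 1.01 in acellular against control (SE; unadjusted p = 0.00806, edgeR adjusted p = 0.827) and -1.87 ± 0.83 in PLATE against control (unadjusted p = 0.0399, edgeR adjusted p = 0.998). PLATE 5 was far above the other PLATE libraries, and the second value was -3.12 without it. Schwann cell markers, 4 genes, had a summed level of 13.2 to 160 CPM in control, 77.0 to 139 CPM in sham, 22.8 to 78.5 CPM in acellular and 19.9 to 44.5 CPM in PLATE. The part of nerve content in the COL28A1 level was not tested.

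COL6A6 encodes an alternative type VI chain, and it had 1.71 CPM (control 2) to 14.9 CPM (control 29) in control with a median of 8.01 CPM. It stood at 16.3, 6.22 and 4.16 CPM in sham 11, 12 and 14, at 9.26, 9.48 and 7.70 CPM in acellular 6, 8 and 10, and at 27.4, 12.5, 13.0 and 11.3 CPM in PLATE 1, 5, 9 and 13. All PLATE libraries were above all acellular ones, with a log2 fold change of 0.86 (edgeR unadjusted p = 0.179), or 0.48 without PLATE 1. COL6A5, its neighbour and also a type VI chain gene, had at most 5.61 CPM and no count in control 2, and its 4 PLATE libraries at 1.66 to 5.61 CPM were above the sham libraries at 0.247 to 1.01 CPM.

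Of the network collagens, made by endothelium and by mesenchymal cells, COL8A1 had 14.1 CPM (control 9) to 65.5 CPM (control 24) in control with a median of 23.5 CPM. Its values were 36.0, 61.7 and 46.7 CPM in sham 11, 12 and 14, 31.7, 34.0 and 21.6 CPM in acellular 6, 8 and 10, and 38.3, 27.8, 58.3 and 44.3 CPM in PLATE 1, 5, 9 and 13. Acellular lay below sham, and all other pairs of groups overlapped. COL8A2, the second type VIII chain gene, had 0.465 to 1.19 CPM in control with a median of 0.522 CPM, 1.21, 2.59 and 1.81 CPM in sham 11, 12 and 14, 1.46, 0.403 and 1.18 CPM in acellular 6, 8 and 10, and 25.6, 0.655, 0.785 and 1.67 CPM in PLATE 1, 5, 9 and 13. Sham was above control without overlap, by a log2 fold change of 1.55 (edgeR unadjusted p = 0.107), and PLATE 1 was 9.91 times the next library. COL8A2 had the smallest p of the collagen chain genes in PLATE against control, with 3.49 ± 0.87 (SE; unadjusted p = 0.00108, edgeR adjusted p = 0.998), but 0.71 without PLATE 1. Against sham the log2 fold change of COL8A2 was 1.93 ± 1.04 (unadjusted p = 0.0824, edgeR adjusted p = 0.667), and -0.85 without PLATE 1.

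All 3 transmembrane collagen genes had a lower fitted level in PLATE than in acellular tissue, where the fibrillar genes were higher. Their median log2 fold change, that of COL25A1, was -0.98, and the class median was -0.82 without control 2 and PLATE 1. COL23A1 was nearly equal, with a mean of 3.62 CPM in PLATE and 3.64 CPM in acellular. COL25A1, known from motor innervation of muscle, had 2.79 CPM (control 2) to 6.45 CPM (control 29) in control with a median of 3.81 CPM. It had 7.08, 8.24 and 6.26 CPM in sham 11, 12 and 14, 7.48, 13.4 and 6.22 CPM in acellular 6, 8 and 10, and 3.49, 6.59, 2.41 and 5.81 CPM in PLATE 1, 5, 9 and 13. Sham and acellular libraries were at the upper end of control or above it, and only control 29 overlapped with them. The log2 fold changes were 1.11 ± 0.36 in acellular against control (SE; unadjusted p = 0.00747, edgeR adjusted p = 0.827; 0.72 without acellular 8), 0.79 ± 0.36 in sham against control (unadjusted p = 0.0465) and -0.98 ± 0.40 in PLATE against acellular (unadjusted p = 0.0272; -0.58 without acellular 8).

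COL17A1, which anchors basal epithelial cells through hemidesmosomes, had 0.360 CPM (control 2) to 17.2 CPM (control 29) in control with a median of 1.93 CPM. It stood at 0.699, 2.54 and 15.2 CPM in sham 11, 12 and 14, at 11.5, 1.95 and 2.32 CPM in acellular 6, 8 and 10, and at 1.10, 8.21, 0.523 and 0.344 CPM in PLATE 1, 5, 9 and 13. High libraries occurred in every group and the groups overlapped. Basal and squamous epithelium markers, 4 genes, had a summed level of 14.5 to 388 CPM in control and 127 to 309 CPM in the operated groups. COL23A1 stayed between 0.467 and 5.72 CPM. COL26A1, in no class, had at most 0.787 CPM and no count in 4 libraries.

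Genes that process collagen were higher in PLATE than in acellular tissue as well. The list held 34 genes for hydroxylation, folding, propeptide removal and crosslinking, of which 27 were tested. In PLATE against acellular, 25 were higher and 2 lower. The median log2 fold change was 0.72 (0.42 without control 2 and PLATE 1), with 13 higher at an unadjusted p under 0.05 (3.61% of all genes), and 0 passed the adjusted threshold by edgeR. ADAMTS2, the protease that removes the amino-terminal propeptide of fibrillar procollagens, had 24.9, 21.97 and 17.6 CPM in acellular 6, 8 and 10 and 115.5, 42.9, 41.95 and 80.1 CPM in PLATE 1, 5, 9 and 13. PCOLCE, which enhances removal of the carboxy-terminal propeptide, had 58.02, 55.98 and 83.0 CPM in the same acellular libraries and 378, 108.8, 153 and 229 CPM in the same PLATE libraries. In both genes the groups did not overlap. The log2 fold change of ADAMTS2 was 1.70 ± 0.42 (SE; unadjusted p = 0.00103, edgeR adjusted p = 0.875), and that of PCOLCE was 1.73 ± 0.53 (edgeR unadjusted p = 0.00518). Without control 2 and PLATE 1 they were 1.33 and 1.29. The count of 13 is with all libraries, and some of the 13 fell further without these libraries. BMP1 went from 1.88 to 0.73, LOXL2 from 1.78 to 0.90 and P4HA3 from 1.76 to 0.36, while LOXL1 went from 0.88 to 0.78. LOX, a crosslinking enzyme, had -0.22 ± 0.37 (edgeR unadjusted p = 0.569).

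Against sham, 21 of the 27 processing genes were lower in acellular tissue and 6 higher (median log2 fold change -0.42), and against control 19 were lower and 8 higher, with a median of -0.32. Between PLATE and control 24 were higher and 3 lower, with a median of 0.35, which was 0.088 without control 2 and PLATE 1. Between sham and control 17 were higher and 10 lower, with a median of 0.14. None of the 27 passed the adjusted threshold in these comparisons (0 calls by edgeR), and 4 were lower in acellular than in control and 6 lower than in sham at an unadjusted p under 0.05, against 4.22% and 3.11% of all genes.

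Of 8 tested collagen receptor genes, 5 were higher and 3 lower in PLATE than in acellular tissue (median log2 fold change 0.25), and 2 were higher and 6 lower in acellular than in sham, with a median of -0.54. Of 6 tested collagen-degrading enzyme genes, 5 were higher and 1 lower in PLATE than in acellular, with a median of 3.47 that was 0.99 without control 2 and PLATE 1. MMP1, an interstitial collagenase, had 1955 CPM in PLATE 1 and 0.611, 1.83 and 5.36 CPM in PLATE 5, 9 and 13. CTSK, a collagen-degrading cathepsin, had 3466 CPM in PLATE 1 against at most 1747 CPM elsewhere. PLATE 1 also had the highest sum of 4 macrophage markers, 1049 CPM, followed by control 24 with 816 CPM. CD68 and CSF1R were highest in PLATE 1, at 358 and 378 CPM. CD163 and MRC1 had 56.8 and 256 CPM there, and up to 251 and 391 CPM in other libraries. The part of macrophages in the COL5A3, COL8A2, COL11A1 and COL12A1 levels of PLATE 1 was not tested. No gene of either list passed the adjusted threshold by edgeR.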

How the data were processed

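The deposited table holds read counts per gene for 16 libraries, 20992063 to 30695000 per library, with no normalization. Stranded poly(A) libraries were sequenced, per the labels' protocols; FastQC, HISAT2 2.2.1 and featureCounts are named in the submitters' processing notes. Genome build, annotation and strand setting of the counting are not given in the sources used here. The line of the table with no gene symbol, 22.9 to 28.5% of counts, was left out. Each column was assigned to the 1 sample whose labelled column name ends in the same index, since the rest of that name differs from the table. With raw counts of this depth, counting error is small for abundant genes, and genes of a few counts are imprecise.

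Counts were tested with edgeR 4.0.16 (R 4.3.3): default filter on low counts, TMM scaling, a mean per group over all 16 libraries, 12 residual degrees of freedom, the quasi-likelihood test and Benjamini-Hochberg adjustment over 10942 genes, threshold 0.05. DESeq2 1.42.0 and limma 3.58.1 (voom with quality weights) were alternatives, with other size factors, no filter, the groups of a comparison alone, and libraries left out. Log2 CPM used a prior count of 2. Ratios were tested by exact permutation and correlations by 100000 permutations. The scripts were tested on simulated data.

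Members are all genes matching the symbol rule. Those given in full are the 3 with the smallest p per comparison and the 2 with the highest mean CPM per class, with partners of 1 molecule. Members and lists were chosen with earlier results of these data known. RefSeq (mOryCun1.1) matched 32 of 32 symbols and was used only for which genes neighbour each other, since the build of the files is not known.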

Additional observations from a re-analysis of the deposited data

Results flagged for a closer look

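Sets of log2 CPM values and of the log2 COL3A1 to COL1A1 ratio were examined for a library far from the others of its group. This was done in groups of 4 to 10 libraries (control and PLATE). Of 65 sets, 6 (9.23%) had such a library, where chance gives about 1 in 20 for sets without ties. PLATE 1 was that library in 4 of them. COL12A1 in PLATE 1 was at 8.94 against 4.47 to 5.23 in PLATE 5, 9 and 13, COL5A2 at 10.31 against 8.63 to 8.87, COL5A3 at 9.14 against 4.03 to 4.83, and COL6A6 at 4.78 against 3.51 to 3.71. Control 25 was the high library of control for COL8A2, at 0.37 against -0.82 to -0.45, and for COL9A1, at -1.48 against -3.33 in each of the other 5, which had no count. With those 5 values tied, control 25 was flagged for COL9A1 whatever the size of the gap.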

How the results depend on the processing

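The number of collagen chain genes called was 0 in all comparisons under every alternative run. Between-library spread limits the comparisons, with 3 or 4 operated animals a group, and depth limits only members of a few counts.

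With 1 library left out, the median log2 fold change of the collagen chain genes ranged from -1.12 (without acellular 6) to -0.38 in acellular against control, -1.15 to -0.54 in acellular against sham, 0.65 to 1.07 in PLATE against acellular, -0.026 to 0.35 in PLATE against control, -0.18 to 0.27 in PLATE against sham and -0.17 to 0.29 in sham against control. The last 3 turned direction: without PLATE 1 (-0.026 in PLATE against control), without sham 11 (0.27 in PLATE against sham and -0.17 in sham against control) and without others. The log2 ratio of COL3A1 to COL1A1 ranged from -0.22 to 0.14 in PLATE against acellular, -0.0037 to 0.20 in PLATE against control, -0.055 to 0.31 in acellular against control, -0.33 to 0.041 in acellular against sham, -0.33 to -0.066 in PLATE against sham and 0.18 to 0.42 in sham against control. Without control 2 and PLATE 1 this ratio was -0.089 in PLATE against acellular and -0.034 in PLATE against control.

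COL11A1 ranged from -0.24 to 5.71 in PLATE against control and from -1.06 to 5.22 in PLATE against sham, and COL8A2 from -0.85 to 2.32 in PLATE against sham. Without control 2 and PLATE 1, COL11A1 was -0.39 against control and -1.08 against sham, and COL8A2 -0.86 against sham. Limma voom gave COL11A1 -0.89 and COL8A2 -0.79 against sham. The cause was not tested. No paired analysis was possible because the groups share only the animal number 9, in control and PLATE.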
